A study of Mus musculus with 78 samples.

Results

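Untreated mouse liver was followed along 4 times of collection, and the question put to the counts was which genes differ with the weeks when no chemical was given. The animals were the water-only groups of a study of dichloroacetic acid (DCA): male B6C3F1 mice, received at 21 days of age, that drank deionized water from 4 weeks of age and were killed after 10, 32, 57 or 78 weeks. These groups are called Control-10, Control-32, Control-57 and Control-78 by the authors. RNA was read with the TempO-Seq mouse S1500+ panel, which reads probes for a chosen set of genes, from archived formalin-fixed paraffin-embedded sections, 1 library per mouse. A library was used if it is also a column of the normalized table that the authors kept after their own check of library likeness. That rule gives 22 of the 24 control libraries, out of 68 kept and 78 in the whole series: 4 in Control-10 (mice 68, 69, 71 and 72) and 6 in each of Control-32 (mice 73 to 78), Control-57 (79 to 84) and Control-78 (85 to 90). All 4 water-only groups carry the same strain, sex and water, each mouse was killed once, and no mouse was seen at more than 1 age. Counts of calls, printed list medians and the tests of the genes described are given with and without mouse 68 of Control-10.

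Among the best known duties of liver cells are the making of blood proteins, the burning and building of lipids and the clearing of drugs and other foreign compounds. The nuclear receptor PPARA turns on genes for fatty acid oxidation, among them the CYP4A hydroxylases, while PXR and CAR turn on drug-metabolizing genes such as CYP3A11. Hepatocytes also secrete complement, clotting and acute-phase proteins, which makes their endoplasmic reticulum a busy organelle guarded by the unfolded protein response, and the same membrane holds the sterol sensor that INSIG1 belongs to.

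The number of reads was not the same at all ages. The median total count per library was 1930473.5 in Control-10, 1987260.0 in Control-32, 2875739.5 in Control-57 and 3505219.5 in Control-78, and the lowest and highest single totals were 721372 (mouse 73) and 4285848 (mouse 89). Depth and weeks therefore move together in these 22 libraries, and their parts in a trend cannot be told apart for a gene that follows both. Levels are given as CPM, a gene's counts scaled to a fixed library total, after TMM scaling. The panel uses attenuator oligos for very abundant transcripts, so the order of genes by CPM need not be the order of their RNA, and the most abundant gene below is the one highest in CPM. The 10 most abundant genes took 19.95% of the counts in mouse 84 and 61.71% in mouse 78, the ends of the range.

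Several libraries stood apart before any gene was tested. Mouse 68 of Control-10 had a median Spearman rho across genes of 0.7661 with the other libraries, and of 0.7315 with the other Control-10 mice, whose medians with their own group were 0.9527 to 0.9647. Mouse 75 of Control-32 had the lowest median, 0.7426. Mouse 73 of Control-32 had the fewest reads and counts for only 1590 genes. Mouse 74 of Control-32 had a median rho of 0.9645 with Control-10 against 0.8195 with the rest of Control-32, and its nearest library was mouse 69 of Control-10 (rho 0.9748). Most of the 22 libraries had their nearest library at another age. Mice 82 and 84 of Control-57 held the highest leukocyte marker sums. All of these labels were kept, and counts of calls without mouse 68, without 73 and 74, without 68 and 75, and without 82 and 84 were made beside those with every library.

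The label of liver was checked against cell-type markers. The hepatocyte markers summed to 74590.0 CPM at the median of Control-10, 70279 of Control-32, 71412 of Control-57 and 65128 of Control-78, with FABP1 the most abundant, and no group stood apart. Lowest were mouse 84 with 33801 CPM and mouse 68 with 36856 CPM. Adipocyte markers (5 on the panel) summed to 613 CPM in mouse 68, of which FABP4, a fatty acid carrier of fat cells, made 545, against 83.7, 99.7 and 75.3 CPM in mice 69, 71 and 72. In the later groups the adipocyte sums ran 43.9 to 275 CPM (median 115) in Control-32, 32.8 to 117 CPM (median 64.6) in Control-57 and 21.4 to 89.6 CPM (median 51.2) in Control-78, so mouse 68 lay above every other library. Pancreas markers (17 on the panel, TRY4 the most abundant) were highest in mouse 75 at 364 CPM, with 75.2 CPM in mouse 68 and 11.2 to 66.5 CPM (median 21) in Control-78. In mice 71 and 73 the pancreas genes were at 0 for 16 of 17. What part pieces of fat or pancreas had in the results of mice 68 and 75 was not tested.

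Markers of leukocytes, vessels and stroma were summed in the same way. Macrophage markers (14 on the panel, TYROBP the most abundant) summed to 1176 to 1836 CPM (median 1702) in Control-10, 1390.2 to 4946 CPM (median 3202) in Control-32, 1942 to 18934 CPM (median 3498) in Control-57 and 1213 to 4520.2 CPM (median 2592) in Control-78. Lymphocyte markers (22 on the panel, CORO1A the most abundant) summed to 148 to 334 CPM (median 192), 144 to 343 CPM (median 201), 159 to 1370.0 CPM (median 250.3) and 133 to 236 CPM (median 183) in the same order. All Control-57 mice were above all Control-10 mice in the macrophage sum, the other pairs of groups overlap in it, and all groups overlap in the lymphocyte sum. The highest values are those of mice 82 (18934 CPM macrophage, 849 lymphocyte) and 84 (8409.7 and 1370.0). TYROBP alone gave 10998 CPM of the macrophage sum in mouse 82 and 1361 CPM in mouse 84. Endothelial markers (8 on the panel, CLEC1B the most abundant) gave 511 to 621 CPM (median 575) in Control-10, 259 to 616 CPM (median 432) in Control-32, 307 to 553 CPM (median 379) in Control-57 and 284 to 405 CPM (median 330.0) in Control-78. Each Control-78 library lay below each Control-10 library in this sum, while the ages between overlap with both. Stellate cell markers (11 on the panel, VIM the most abundant) had medians of 487, 241, 369.5 and 178 CPM. Mouse 68 had 234 CPM, within the range of each later group, while mice 69, 71 and 72 had 544, 496 and 479 CPM, above all of Control-32 (highest 308) and Control-78 (highest 253). In mouse 73, the library with the fewest reads, 6 of 14 macrophage genes were at 0. Erythroid markers (HBA-A2 the most abundant) had medians of 606, 1019, 1082 and 1237 CPM, and muscle markers 59.8, 93.6, 54.8 and 51 CPM. The cholangiocyte sum was highest in mouse 90 at 359.6 CPM, where SPP1 alone gave 302. In such bulk libraries fewer cells of a type and less RNA per cell cannot be told apart.

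**Figure D1:**
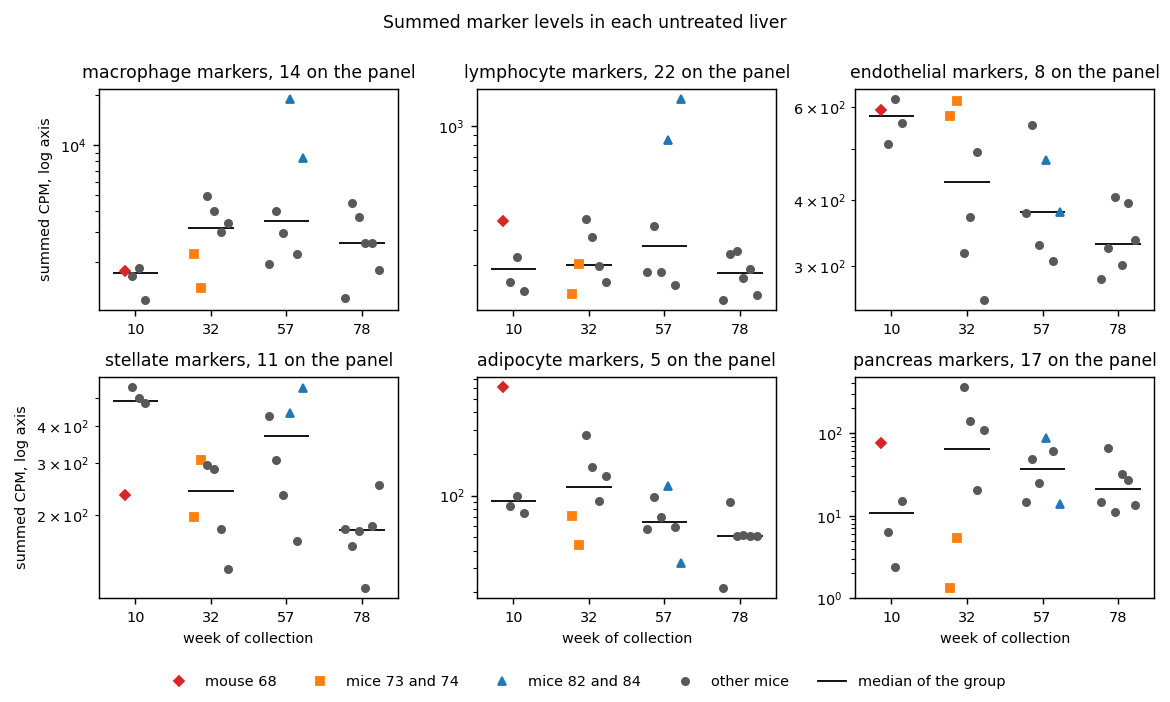
Summed level of 6 marker lists in each of the 22 libraries (log axis, CPM) against weeks, with mouse 68, mice 73 and 74, and mice 82 and 84 marked. Mouse 68 is the highest in adipocyte markers (613 CPM), and mice 82 and 84 are the highest in lymphocyte markers (849 and 1370.0 CPM).

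Few of the panel's genes were called when a straight line was fitted along the weeks. A called slope does not show that the change was steady. The slope was fitted with edgeR's quasi-likelihood test on the 2205 genes the authors kept, and it is given as the fitted log2 change from week 10 to week 78 with its standard error (SE). A gene was called when its Benjamini-Hochberg adjusted p over all 2205 genes was at most 0.05 and its fitted fold was above 1.5. With all 22 libraries 18 genes (0.816% of those tested) were called, 7 higher with age (0.317%) and 11 lower (0.499%). Without mouse 68 there were 20 (0.907%), 10 higher (0.454%) and 10 lower (0.454%). The 12 genes called both times are HERPUD1, AMY1, INSIG1, C3 and C8A, which rose, and CYP4A14, CYP4A10, CYP3A11, SYTL2, AP2M1, SDPR and GIMAP6, which fell; symbols are in capitals as in the files. At an unadjusted p under 0.05 there were 187 genes higher (8.48%) and 156 lower (7.07%), and the median fitted change over all genes was −0.09 (−0.12 without mouse 68).

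The size of the list depends on the fit and on single mice. With log2 total count as a covariate edgeR called 0 genes, and 311 genes had an unadjusted p under 0.05. The 12 genes then had adjusted p values of 0.106 to 0.342 with their signs kept, and the lost calls do not show that their changes were gone: the trend of HERPUD1 was 2.15 and the trend of CYP3A11 −2.76, while the trend of AMY1 was 1.39 and the trend of SYTL2 −1.32. DESeq2 called 125 genes, 65 higher and 60 lower. Upper-quartile scaling called 41, 7 higher and 34 lower, and moved the median of all genes to −0.33, while RLE scaling moved it to −0.21. The authors' normalized values in limma gave 18 higher and 5 lower calls with a median of 0.10, and 9 of the 23 genes were among the 18. Among the 12, limma ended the calls of 4: adjusted p was 0.0518 for the trend of C3, 0.0607 for the trend of CYP3A11 and the trend of SDPR and 0.0729 for the trend of GIMAP6. The trend of SYTL2 lost its call with every gene counted at least once, with all 24 control libraries, after thinning and along log2 of week (adjusted p = 0.0552 to 0.123). Leaving out 1 library at a time gave 11 to 58 calls: 28 without mouse 76, 54 without 77, 31 without 84, 58 without 86 and 11 without 89. Without mice 73 and 74 there were 19 calls, without 68 and 75 18 and without 82 and 84 30, and among the 12 genes only the trend of C3 lost its call in any of these fits (adjusted p = 0.0635 without 73 and 74, 0.0556 without 68 and 75). After the libraries were thinned to 721372 counts each, 20 genes were called, 17 of them among the 18.

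**Figure D2:**
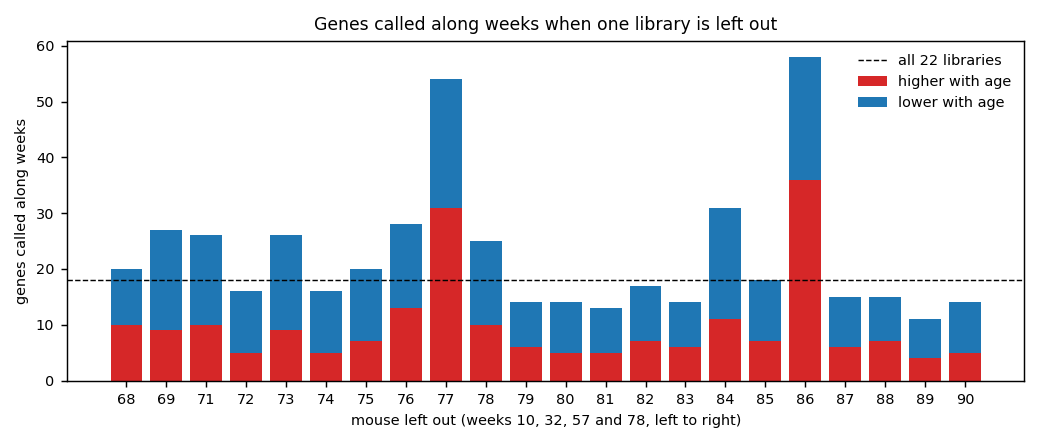
Number of genes called in the trend along weeks (y axis) when each mouse in turn is left out (x axis), split into higher and lower with age, with a dashed line at the 18 calls of all 22 libraries. The count is 58 without mouse 86 and 11 without mouse 89.

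**Figure D3:**
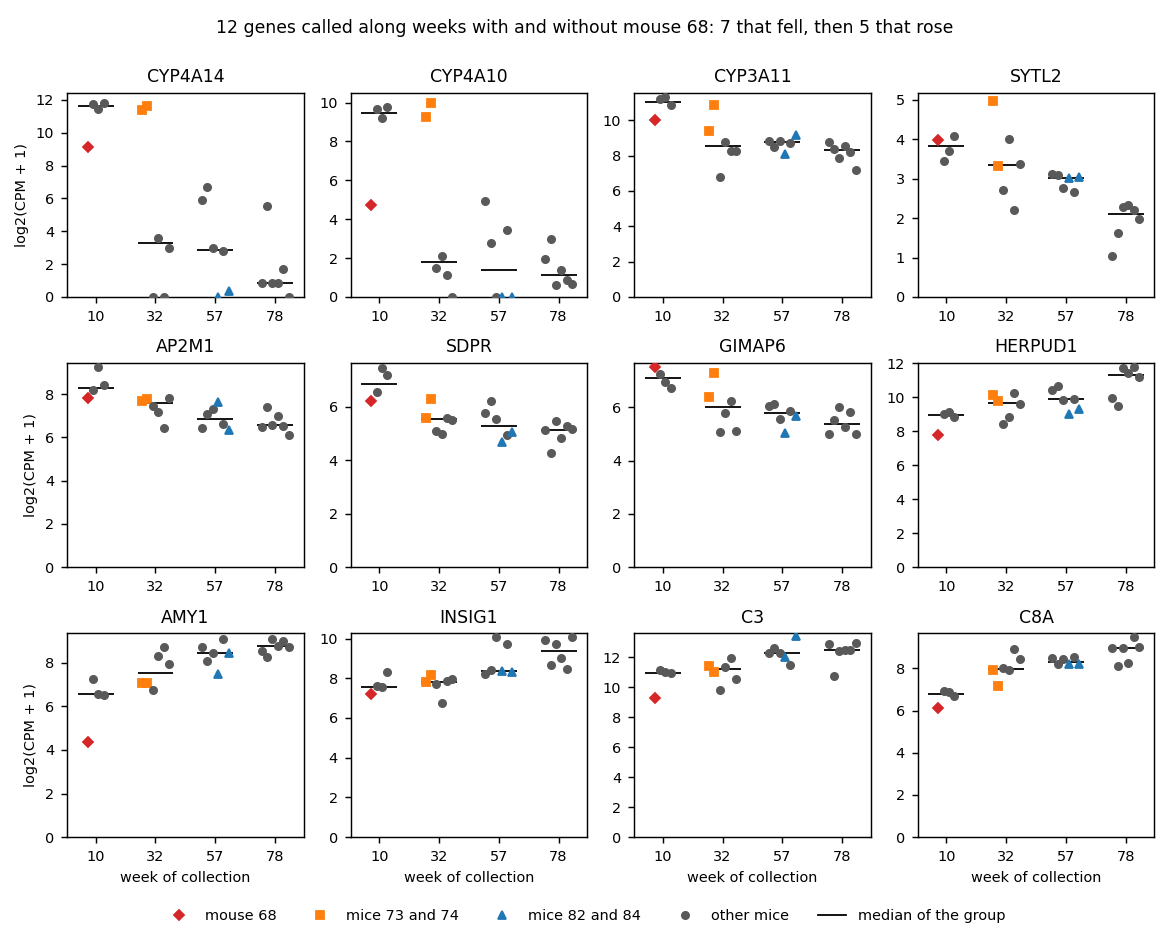
Level of the 12 genes called with and without mouse 68, as log2 of CPM plus 1 (y axis) against weeks (x axis), 1 point per mouse, with short lines at the group medians and mouse 68, mice 73 and 74, and mice 82 and 84 marked. CYP4A14 goes from a median of 3172 CPM in Control-10 to 0.797 CPM in Control-78, and HERPUD1 from 492 to 2554 CPM.

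The steepest falls were those of CYP4A14 and CYP4A10, neighbouring PPARA target genes whose enzymes hydroxylate the far end of fatty acids. CYP4A14 stood at 568, 3503, 2840.0 and 3606 CPM in mice 68, 69, 71 and 72 of Control-10. Control-32 split into mice 73 and 74, with 2706 and 3133 CPM, and mice 75 to 78, with 0, 10.8, 0 and 6.76 CPM. It ran 0 to 102 CPM (median 6.39) in Control-57 and 0 to 45.5 CPM (median 0.797) in Control-78, so every mouse of the oldest groups was below every Control-10 mouse. The fitted log2 change was −9.52 ± 2.02 (SE, adjusted p = 0.0169), or −9.83 ± 2.07 without mouse 68 (adjusted p = 0.0224). CYP4A10 had 25.4, 826, 581 and 872 CPM in the Control-10 mice, in the same order, and 599 and 1007 CPM in mice 73 and 74. Mice 75 to 78 had 1.85, 3.34, 1.21 and 0 CPM, Control-57 ran 0 to 29.1 CPM (median 2.97) and Control-78 0.511 to 7.00 CPM (median 1.23). In the oldest groups only mouse 79 reached the level of mouse 68, and none reached that of the other Control-10 mice. CYP4A10 fell by 9.44 ± 1.82 log2 (adjusted p = 0.00828; −9.89 ± 1.81 and adjusted p = 0.00987 without mouse 68). The genes lie at chr4:115486200-115496142 and chr4:115518264-115533649 (GENCODE vM21, GRCm38), with 22122 bases between their starts, and they are close in sequence, so whether a probe reads only its own gene was not tested. Many counts of the older mice are at or near 0, so the size of both changes is uncertain.

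Genes of PPARA and fatty acid oxidation were fitted lower more often than higher. Of 24 tested genes on that list, 5 were fitted higher and 19 lower, with a median of −0.54 (−0.59 without mouse 68) against −0.09 over all genes, and the median stayed below 0 under every scaling. With the depth covariate it was −0.32, with 9 fitted higher and 15 lower. Calls were 3 down (CYP4A14, CYP4A10 and FGF21) with mouse 68 and 2 without it. Over all 2205 genes 0.499% were called lower with mouse 68 and 0.454% without it, and 993 were fitted higher and 1212 lower. ACAA1B, a peroxisomal thiolase and PPARA target, had 1128, 1746, 2426 and 1879.7 CPM in Control-10, 349.8 to 5265 CPM (median 1011) in Control-32, 145 to 789 CPM (median 408) in Control-57 and 90.1 to 1707 CPM (median 168) in Control-78. Control-57 lay below all of Control-10. The other pairs of ages overlap, with mouse 73 the highest of Control-32 and mouse 86 the highest of Control-78. Its fitted log2 change was −2.29 ± 0.70 (adjusted p = 0.0866; −2.40 ± 0.73 and adjusted p = 0.108 without mouse 68), and without mouse 86 it was called (adjusted p = 0.00819). FGF21, a liver hormone of the fasted state and a PPARA target, rested on 1 library: it was 899 CPM in mouse 68 and 12.5, 5.30 and 14.4 CPM in mice 69, 71 and 72. Its change of −4.04 ± 0.96 (adjusted p = 0.0405) became −0.40 without that mouse (adjusted p = 0.9).

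CYP3A11, a PXR-driven cytochrome P450 that clears drugs and steroids, fell with age. It was at 1047, 2353, 2515 and 1876 CPM in mice 68, 69, 71 and 72 of Control-10 and ran 108 to 1859 CPM (median 369) in Control-32, 276 to 561 CPM (median 428) in Control-57 and 147 to 442 CPM (median 312) in Control-78. No mouse of Control-57 or Control-78 reached the lowest of Control-10, and the single Control-32 mouse that did was mouse 74. The fitted log2 change was −2.49 ± 0.45 (adjusted p = 0.00828), and −2.58 ± 0.45 (adjusted p = 0.00987) without mouse 68. The gene belongs to a cluster of near relatives on chromosome 5, and whether its probe reads only CYP3A11 was not tested. The phase 1 enzymes as a list went both ways: of 31 tested, 17 were fitted higher and 14 lower (median 0.23, 0.15 without mouse 68, or −0.06 with the depth covariate), and CYP3A11 was the only call. Among 41 conjugation and antioxidant (phase 2) genes, 24 were fitted higher and 17 lower (median 0.08, but −0.04 without mouse 68, −0.06 with upper-quartile scaling, 0.31 in limma and −0.35 with the depth covariate, where 16 were fitted higher and 25 lower). The 1 call there, CBR3, a carbonyl reductase, was lost without mouse 68: CBR3 stood at 232 CPM in that mouse and at 9.62, 13 and 10.5 CPM in the others of Control-10.

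Of the 12 genes, 9 have an entry among RefSeq promoters (GRCm38.p6), each 300 bases long with 250 before and 50 after the start, and the promoters of Cyp3a11, Herpud1 and Insig1 are shown because each gene stands for a pathway with known promoter letters. The Cyp3a11 promoter (chr5:145879805-145880104, minus strand, written 5′ to 3′ along the gene) holds 1 nuclear receptor half-site, AGGTCA, in capitals at bases 89 to 94. The half-site is also found once in Insig1 (bases 146 to 151) and once in Herpud1 (bases 218 to 223, other strand), where it is left in lower case. Those letters are on either strand of 16.3% of 32851 promoters. The repeat with 1 base between, AGGTCANAGGTCA, found in 0.0396%, is not in this window, and repeats with other spacings were not searched.
Cyp3a11: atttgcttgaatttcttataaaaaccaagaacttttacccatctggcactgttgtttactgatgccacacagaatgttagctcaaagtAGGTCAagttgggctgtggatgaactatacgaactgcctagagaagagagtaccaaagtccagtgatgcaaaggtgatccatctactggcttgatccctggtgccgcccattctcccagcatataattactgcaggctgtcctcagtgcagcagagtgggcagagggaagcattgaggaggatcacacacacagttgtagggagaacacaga

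The complement genes C8A and C3, which hepatocytes express, rose with age. C8A, a chain of the pore that complement puts into membranes, was at 67.6, 120.1, 117 and 101 CPM in mice 68, 69, 71 and 72. It ran 145 to 488 CPM (median 251) in Control-32, 291 to 371 CPM (median 319.9) in Control-57 and 274 to 718 CPM (median 507) in Control-78, and every older mouse was above every mouse of Control-10. The log2 change was 1.81 ± 0.35 (adjusted p = 0.00828), or 1.57 ± 0.34 without mouse 68 (adjusted p = 0.0261). C3, the protein on which all complement routes meet, had 622, 2282, 2019 and 1961 CPM in Control-10, 898 to 3983 CPM (median 2357) in Control-32, 2858 to 10644 CPM (median 4918) in Control-57 and 1722 to 8046 CPM (median 5694) in Control-78. Every Control-57 mouse was above every Control-10 mouse. The other pairs of groups overlap, and mouse 86, at 1722 CPM, is the only Control-78 mouse within the range of Control-10. C3 rose by 1.97 ± 0.45 log2 (adjusted p = 0.0322), or 1.75 ± 0.43 without mouse 68 (adjusted p = 0.0488), and its call was lost without mouse 89 or mouse 90 (adjusted p = 0.0521 to 0.0627). Of 14 complement genes tested 12 were fitted higher and 2 lower, with a median of 1.09 (0.95 without mouse 68) against −0.09 over all genes. The sign of that median held in every scaling, down to 0.86 with upper-quartile factors, and it was 0.37 with the depth covariate.

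Acute-phase genes, which the liver makes in answer to inflammation, were also fitted higher, with 2 calls. Of 17 tested, 16 were fitted higher and 1 lower, with a median of 1.28 (1.02 without mouse 68, 0.55 with the depth covariate). Called were C3 and HP with all libraries, and C3 and APCS without mouse 68. Among all genes 0.317% were called higher (0.454% without mouse 68) and 993 of 2205 were fitted higher, with a median of −0.09. HP, or haptoglobin, which binds free haemoglobin, had 417, 773, 742 and 569 CPM in Control-10, 543 to 1774 CPM (median 1129.7) in Control-32, 1254 to 3584 CPM (median 2187) in Control-57 and 887 to 3398 CPM (median 1974) in Control-78. Only Control-32 overlaps Control-10 in HP, and the log2 change was 1.85 ± 0.43 (adjusted p = 0.0357), or 1.66 ± 0.46 without mouse 68 (adjusted p = 0.0906). APCS, the serum amyloid P component, was 148 CPM at the median of Control-10 and 636 of Control-78, with fitted changes of 2.14 ± 0.60 (adjusted p = 0.059) and 1.84 ± 0.39 (adjusted p = 0.025) with and without mouse 68. SAA2, a serum amyloid A gene, spread most: 23.4 to 1029.7 CPM (median 488) in Control-10, 39.6 to 2157 CPM (median 155) in Control-32, 229 to 12855 CPM (median 1357) in Control-57 and 44.1 to 43671 CPM (median 3763) in Control-78. Its highest value is mouse 89 of Control-78, and its fitted change of 4.91 ± 1.32 was not called (adjusted p = 0.051), though it was without mouse 77 or mouse 86 (adjusted p = 0.0255 to 0.0491), and without mouse 68 it was 4.68 ± 1.38 (adjusted p = 0.0971). CLU, a secreted chaperone, was at 1.20 ± 0.30 (adjusted p = 0.051), or 1.21 ± 0.30 without mouse 68 (adjusted p = 0.0587). It was called without mouse 76, 77 or 86 (adjusted p = 0.021 to 0.0409), with all 24 control libraries, with filterByExpr's genes, in DESeq2 and along log2 of week. Clotting genes had 14 of 16 fitted higher, a median of 0.96 (0.70 without mouse 68, 0.17 with the covariate) and no call.

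INSIG1, which holds the sterol sensor complex in the endoplasmic reticulum when cholesterol is plentiful and is itself turned on by SREBP, rose with age. It was at 146, 192, 185 and 321 CPM in mice 68, 69, 71 and 72, and ran 108 to 281 CPM (median 227) in Control-32, 300.0 to 1089.6 CPM (median 330.3) in Control-57 and 358 to 1068 CPM (median 686) in Control-78. Each Control-78 mouse was above each Control-10 mouse, and Control-57 overlapped Control-10 by a little. The fitted log2 change was 1.98 ± 0.39 (adjusted p = 0.0101), and 1.88 ± 0.41 without mouse 68 (adjusted p = 0.0261). Cholesterol synthesis as a list had 15 of 16 genes fitted higher with a median of 0.85 (1.17 without mouse 68), and above 0 in every scaling and with the covariate (0.93), but INSIG1 was its only call. FDFT1, the squalene synthase, had group medians of 169.8, 156, 259 and 326 CPM along the weeks and a change of 1.28 ± 0.35 (adjusted p = 0.0566), or 1.40 ± 0.36 without mouse 68 (adjusted p = 0.0745). DHCR7, which makes the last step to cholesterol, had medians of 46.7, 37, 91.1 and 113 CPM and a change of 1.58 ± 0.42 (adjusted p = 0.051), or 1.54 ± 0.44 without mouse 68 (adjusted p = 0.0961). Both were called without mouse 86 (adjusted p = 0.0435 and 0.0229).

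The Insig1 promoter (chr5:28071162-28071461, plus strand) is shown because Insig1 is known to answer to sterols: the classical sterol element, searched as TCACNCCAC on both strands and present in 1.24% of promoters, is not among these 300 letters. The capitals mark a CCAAT box read on the other strand (ATTGG, bases 35 to 39, in 37.4% of promoters).
Insig1: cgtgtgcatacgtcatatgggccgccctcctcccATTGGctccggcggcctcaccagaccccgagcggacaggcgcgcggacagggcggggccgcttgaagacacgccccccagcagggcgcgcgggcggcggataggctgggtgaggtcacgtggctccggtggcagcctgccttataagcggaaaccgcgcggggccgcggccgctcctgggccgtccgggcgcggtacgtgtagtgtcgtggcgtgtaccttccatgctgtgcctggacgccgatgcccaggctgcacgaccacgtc

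HERPUD1, a membrane protein that helps clear misfolded proteins from the endoplasmic reticulum, had the largest rise among the 12. Its levels were 222, 522, 554 and 462 CPM in mice 68, 69, 71 and 72 of Control-10. They ran 339 to 1229 CPM (median 825) in Control-32, 510.0 to 1612 CPM (median 937) in Control-57 and 731 to 3566 CPM (median 2554) in Control-78. All Control-78 mice were above all Control-10 mice, and the ages between overlap with both ends. The change was 2.21 ± 0.41 log2 (adjusted p = 0.00828), or 2.03 ± 0.40 without mouse 68 (adjusted p = 0.012). Among 22 genes of the unfolded protein response, 17 were fitted higher and 5 lower, with a median of 0.70 (0.52 without mouse 68, 0.37 with the covariate), and HERPUD1 was the only call with all libraries. KDELR2, which returns escaped chaperones to the endoplasmic reticulum, had medians of 132, 146, 233 and 310.4 CPM and a fitted change of 1.42 ± 0.42 (adjusted p = 0.0771; 1.36 ± 0.43 and adjusted p = 0.114 without mouse 68), and it was called without mouse 77 or 86 (adjusted p = 0.0414 to 0.0491). Over 36 other fits the change of KDELR2 ran from 0.376 to 1.62 and its adjusted p from 0.0316 to 0.77. DDIT3, a transcription factor of prolonged stress, was 563 CPM in mouse 68 and 113, 96.4 and 72.8 CPM in the others of Control-10, and its change was 1.18 ± 0.48 with mouse 68 (adjusted p = 0.208) and 1.98 ± 0.45 without (adjusted p = 0.0311). TRIB3, a target of the same stress arm, was 466 CPM in mouse 68 against 29.6, 80.5 and 94.1 CPM, with a change of −1.93 ± 0.62 (adjusted p = 0.101), or −1.34 ± 0.69 without mouse 68 (adjusted p = 0.416). TRIB3 was called without mouse 69 (adjusted p = 0.0496), with all 24 control libraries and in DESeq2.

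The Herpud1 promoter (chr8:94386179-94386478, plus strand) is shown because it holds letters known from stress-response genes. The ER stress response element II lies at bases 199 to 209, 52 bases before the start, as ATTGGGCCACG, where the G before CCACG may be any base in the motif, and is found on either strand of 12 of 32851 promoters (0.0365%). Its first letters are also a CCAAT box, and another CCAAT box is at bases 233 to 237; both are in capitals. A match of letters is a description and no proof of binding.
Herpud1: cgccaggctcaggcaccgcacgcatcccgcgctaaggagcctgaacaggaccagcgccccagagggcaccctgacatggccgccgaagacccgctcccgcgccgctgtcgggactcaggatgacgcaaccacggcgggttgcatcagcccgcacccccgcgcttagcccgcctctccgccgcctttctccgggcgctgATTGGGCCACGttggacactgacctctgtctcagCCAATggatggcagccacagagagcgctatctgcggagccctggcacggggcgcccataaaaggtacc

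AMY1, the amylase of saliva and liver that splits starch and glycogen, rose with age. It was at 19.3, 152, 95.4 and 89.7 CPM in mice 68, 69, 71 and 72, and ran 108 to 422 CPM (median 192) in Control-32, 179 to 544 CPM (median 347) in Control-57 and 311 to 552 CPM (median 429) in Control-78. Every Control-57 and Control-78 mouse was above every Control-10 mouse. The log2 change was 2.07 ± 0.45 (adjusted p = 0.0189), and 1.75 ± 0.36 without mouse 68 (adjusted p = 0.018). Pancreatic amylase genes are close relatives. The mice with the highest pancreas marker sum of each group, 68, 75, 82 and 86, had 19.3, 108, 179 and 311 CPM of AMY1, and the part of pancreas RNA in its level was not tested. Glucose and glycogen genes had 4 of 16 fitted higher and 12 lower (median −0.37, −0.46 without mouse 68, below 0 in every scaling) and no call with all libraries. GAPDH, of glycolysis, was called lower without mouse 77 or 85 and without mouse 68 (−1.38 ± 0.33, adjusted p = 0.044) and was −1.16 ± 0.31 with it (adjusted p = 0.051). GAPDH was called in 9 of 36 other fits, those leave-outs among them, with a lowest adjusted p of 0.0117.

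AP2M1, SYTL2, SDPR and GIMAP6, known from membrane traffic, caveolae and immune cells, fell with age. AP2M1, the subunit of the clathrin adaptor that picks cargo for endocytosis, had 225, 290.0, 616 and 343 CPM in mice 68, 69, 71 and 72, and ran 85.4 to 226 CPM (median 190.0) in Control-32, 79.7 to 195 CPM (median 116) in Control-57 and 68.5 to 171 CPM (median 93.4) in Control-78. The oldest pair of groups did not reach Control-10, and Control-32 touched it only at its highest mouse. AP2M1 fell by 1.67 ± 0.31 log2 (adjusted p = 0.00828), and without mouse 68 the change was −1.78 ± 0.32 (adjusted p = 0.00987). SYTL2, which ties secretory vesicles to the plasma membrane, was low throughout: 14.7, 9.98, 12 and 15.9 CPM in Control-10, 3.63 to 30.4 CPM (median 9.18) in Control-32, 5.30 to 7.69 CPM (median 7.17) in Control-57 and 1.04 to 4.06 CPM (median 3.29) in Control-78. Control-57 and Control-78 lay below all of Control-10. Its change of −2.23 ± 0.54 (adjusted p = 0.0431; −2.31 ± 0.57 and 0.0488 without mouse 68) had the largest adjusted p of the 12 with all libraries, and leaving out any 1 of mice 72, 79, 81, 82, 83, 85, 87, 88, 89 or 90 ended the call (adjusted p = 0.0536 to 0.0864). SDPR, now named Cavin2, coats the membrane pits called caveolae, which are frequent in endothelium. It had 73.7, 92.3, 175 and 144 CPM in Control-10, 30.9 to 77.6 CPM (median 45.5) in Control-32, 24.5 to 72.9 CPM (median 38.5) in Control-57 and 18.2 to 42.6 CPM (median 34.2) in Control-78, and only mouse 74 among the older mice reached Control-10. SDPR fell by 1.66 ± 0.33 log2 (adjusted p = 0.0105; −1.76 ± 0.33 and adjusted p = 0.0101 without mouse 68). GIMAP6, a small GTPase known from lymphocytes and endothelium, had 184, 152, 122 and 106 CPM in Control-10, 32.6 to 156 CPM (median 65.2) in Control-32, 31.7 to 68.2 CPM (median 53.9) in Control-57 and 31 to 64.1 CPM (median 41.2) in Control-78. Mouse 74 was again the only older mouse within the range of Control-10, and the log2 change was −1.57 ± 0.33 (adjusted p = 0.0169) or −1.43 ± 0.33 (adjusted p = 0.0317) without mouse 68.

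Endothelial markers were fitted lower in 8 of 8 tested genes under every scaling, with a median of −1.16 (−1.34 without mouse 68) against −0.09 over all genes. None was called with all libraries, and ENG, a TGF-beta co-receptor of vessels, was called without mouse 68 (−1.54 ± 0.37, adjusted p = 0.044). TEK, the angiopoietin receptor, had medians of 35.4, 43.1, 18.7 and 16.7 CPM, a change of −1.54 ± 0.40 (adjusted p = 0.051; −1.60 ± 0.45 and 0.0936 without mouse 68) and a call without mouse 71, 76, 77 or 86 (adjusted p = 0.0309 to 0.0477). TEK was called in 9 of 36 other fits, those leave-outs among them, with a lowest adjusted p of 0.00387. The part that the endothelial share of the tissue had in SDPR and GIMAP6 was not tested. Stellate cell genes were fitted higher in 4 and lower in 6 of 10 (median −0.31, −0.44 without mouse 68), and collagen and matrix genes in 10 and 18 of 28 (median −0.43, −0.52 without mouse 68), without a call and with a median below 0 in every scaling. The collagen median was −0.20 in limma and −0.90 with the depth covariate, and with that covariate the stellate median was −0.65, with 1 fitted higher and 9 lower. COL1A1, the main fibrillar collagen chain, ran 87.4 to 186 CPM (median 165) in Control-10, 23 to 92.8 CPM (median 37.7) in Control-32, 26.5 to 161 CPM (median 54.1) in Control-57 and 8.53 to 36 CPM (median 20.2) in Control-78. Control-78 lay below all of Control-10, and the ages between overlap with each other. Its slope was −2.11 ± 0.59 (adjusted p = 0.0605; −2.22 ± 0.65 and adjusted p = 0.0971 without mouse 68), and it was called without mouse 77, 82 or 84 (adjusted p = 0.028 to 0.0456) and without 82 and 84 together (adjusted p = 0.00467). Its partner chain COL1A2 was at −2.08 ± 0.58 (adjusted p = 0.0566; −2.23 ± 0.64 and adjusted p = 0.0961 without mouse 68) and was called without mouse 77 or 84 (adjusted p = 0.0432 to 0.0491). The smallest trend p of the collagen and matrix list was that of FN1, fitted higher at 1.19 (adjusted p = 0.0554; 1.16 and 0.0906 without mouse 68). LAMA3 was also fitted higher, at 2.31 (adjusted p = 0.0700; 2.00 and 0.112 without mouse 68).

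The macrophage and lymphocyte marker lists held no trend call with all libraries. Macrophage genes were fitted higher in 7 and lower in 7 of 14, and lymphocyte genes in 10 and 5 of 15. Fitted lower were, among others, MMP12 (−1.68, adjusted p = 0.339, or −1.05 and 0.714 without mouse 68) and IGLC2 (−1.48, adjusted p = 0.402, or −1.51 and 0.499). CYBB, the oxidase subunit of phagocytes, ran 8.13 to 29.2 CPM (median 16.8) in Control-10, 0 to 30.8 CPM (median 20.2) in Control-32, 15 to 670.0 CPM (median 19.8) in Control-57 and 6.30 to 25.8 CPM (median 13.7) in Control-78, with mouse 84 the highest. Its fitted change was 2.22 ± 1.63 (adjusted p = 0.56; 1.90 ± 1.86 and adjusted p = 0.714 without mouse 68), and the sign turned with the depth covariate (−0.70) and without mice 82 and 84 (−0.45). LTB, lymphotoxin beta, ran 0 to 1.93 CPM (median 0.534), 0 to 4.17 CPM (median 2.08), 1.37 to 255 CPM (median 2.56) and 0 to 4.06 CPM (median 2.46) in the same order, again with mouse 84 the highest. Its change was 5.39 ± 2.59 (adjusted p = 0.315), 4.92 ± 2.92 without mouse 68 (again not called) and −1.50 with the covariate. MPEG1, a pore protein of macrophages, had medians of 311, 563, 699.6 and 700.4 CPM and a change of 1.60 ± 0.66 (adjusted p = 0.223; 1.63 ± 0.78 and adjusted p = 0.36 without mouse 68). CD4, of helper T cells, was at 0 in all Control-10 mice and ran 1.56 to 8.13 CPM (median 4.92) in Control-78, so no fold is given (adjusted p = 0.111, or 0.228 without mouse 68). CD4 was called without mouse 76 (adjusted p = 0.0409), in DESeq2, in limma and along log2 of week, and its sign turned with all 24 control libraries (−0.95). The medians of the interferon, antigen presentation, lymphocyte and macrophage lists all turned sign with the scaling, and none of these lists held a call.

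Adipocyte markers were fitted lower in 3 of 3 tested genes, and in 2 of 3 with the authors' values in limma, with a median of −2.00 (−1.96 without mouse 68, −0.79 with the depth covariate) and 1 call, FABP4, that was made only with mouse 68. The gene lists not described so far held no call with all libraries. Cell cycle genes were fitted higher in 9 and lower in 34 of 43, with a median of −0.89 (−0.51 without mouse 68), below 0 in every scaling and −0.26 with the covariate. Mean levels in this list ran from 1.64 CPM (MKI67) to 280 CPM (TK1), and the low ones rest on few counts. The medians of the male-biased, bile acid, immediate-early, insulin and growth hormone, ribosome, oxidative phosphorylation and p53 lists changed sign with the scaling. Those of the male-biased, bile acid, ribosome and p53 lists also changed sign without mouse 68, from 0.12 to −0.34, 0.04 to −0.12, 0.09 to −0.06 and −0.04 to 0.07. In limma the male-biased median was 1.69, with 9 of 9 genes fitted higher. Amino acid and urea cycle genes had a median of 0.50 (0.13 without mouse 68), with 10 of 13 fitted higher, and circadian clock genes had 0.76 (0.52), with 4 of 6 fitted higher. With the depth covariate these medians were 0.35 and 0.05, and clock genes were then 3 higher and 3 lower, as they were in limma (0.27). Such a median describes the list and is no test of it. Among all 2205 genes 993 were fitted higher and 1212 lower.

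**Figure D4:**
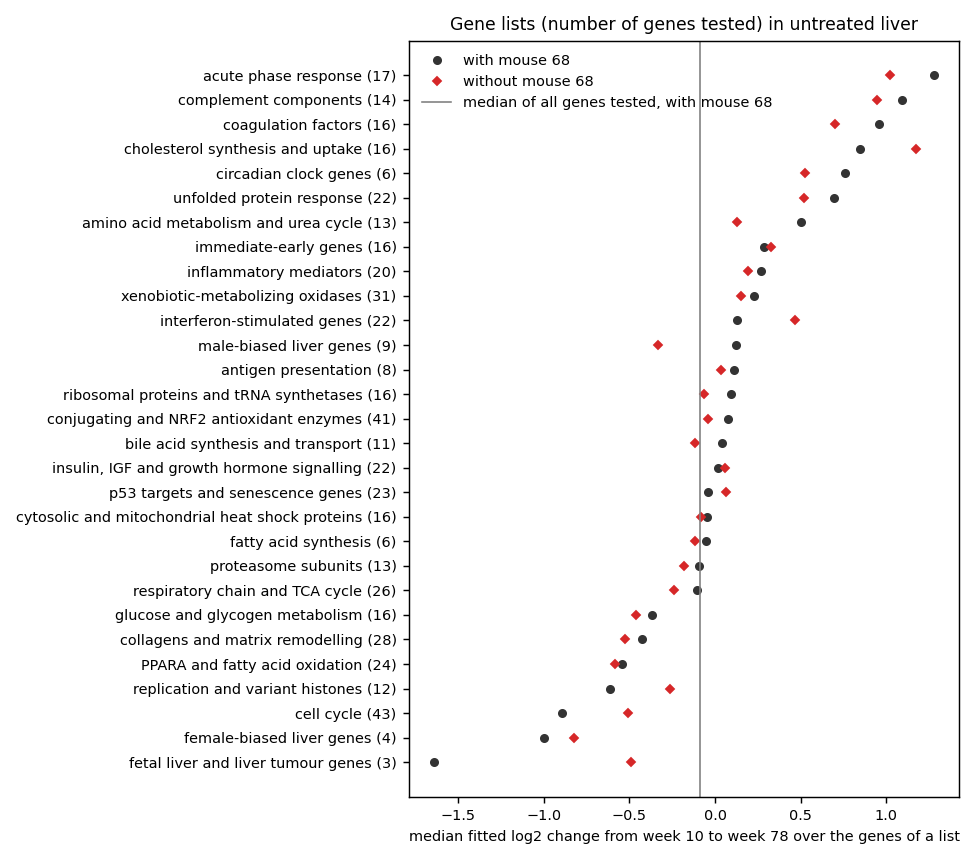
Median fitted log2 change from week 10 to week 78 (x axis) of 29 gene lists (y axis), with all 22 libraries in black and without mouse 68 in red, and a grey line at the median of all genes (−0.09). Acute-phase genes stand at 1.28 and cell cycle genes at −0.89.

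Of the trend calls, 6 were made only with mouse 68 and 8 only without it. FGF21 and CBR3, described above, moved furthest: FGF21 went from −4.04 to −0.40 and CBR3 from −3.71 (adjusted p = 0.00828) to −1.60 (adjusted p = 0.29). FABP4 stood at 545 CPM in mouse 68 against 72, 90.1 and 71.7 CPM in the other Control-10 mice, and its change went from −2.00 ± 0.48 (adjusted p = 0.0405) to −1.23 (adjusted p = 0.243). CTNND1, a partner of cadherins, went from −1.39 (adjusted p = 0.0235) to −0.88 (adjusted p = 0.0745; 0.0521 without mouse 89), and LRG1, a secreted glycoprotein, from 2.66 (adjusted p = 0.0405) to 2.55 (adjusted p = 0.0777); both were chosen after their values were seen. FGF21 also lost its call without any 1 of mice 79 to 83 and 87 to 90, FABP4 without any 1 of 79, 80, 81, 83, 85 and 87 to 90, HP without any 1 of 69, 71, 72, 74, 80, 81, 85, 89 and 90, and LRG1 without any 1 of 72, 74, 79, 80, 81, 83, 85, 87, 89 and 90. The adjusted p values in these fits, mouse 68 included, ran from 0.0536 to 0.9 for FGF21, 0.0545 to 0.243 for FABP4, 0.052 to 0.0913 for HP and 0.0516 to 0.0893 for LRG1. The 8 called only without mouse 68 were ENG, GAPDH and APCS and, chosen after their values were seen, ETS1, JMJD6, AGXT2, TRIM28 and DDIT3. AGXT2, an aminotransferase of liver and kidney, stood at 2079 CPM in mouse 68 and 564, 446 and 507 CPM in mice 69, 71 and 72, with 745 to 1701 CPM (median 1343) in Control-78. Its change was 0.86 with mouse 68 (adjusted p = 0.295) and 1.54 without (adjusted p = 0.0317). ETS1 went from −1.11 (adjusted p = 0.102) to −1.40 (adjusted p = 0.012) without mouse 68, JMJD6 from 0.72 (adjusted p = 0.237) to 1.11 (adjusted p = 0.0311) and TRIM28 from 0.87 (adjusted p = 0.051) to 0.90 (adjusted p = 0.0488). TRIM28 and APCS were also called without mouse 77 or 86.

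Between neighbouring ages edgeR called no gene, with or without mouse 68. Control-32 against Control-10 had 0 calls (0% of genes tested), with 333 genes at an unadjusted p under 0.05 (546 without mouse 68) and a smallest adjusted p of 0.088, for VTN, a glycoprotein of plasma (0.0561 without mouse 68). VTN was at 2378, 3975, 3501 and 3325 CPM in mice 68, 69, 71 and 72 and ran 3696 to 23209 CPM (median 16440.1) in Control-32. DESeq2 called 76 genes here and limma 0, and without mouse 74 edgeR called 92. Control-57 against Control-32 had 0 calls (0%), 154 genes at an unadjusted p under 0.05 (201 without mouse 68) and a smallest adjusted p of 0.306, with 9 calls by DESeq2 and 0 by limma. Control-78 against Control-57 had 0 calls (0%), 93 such genes (128 without mouse 68, a mouse of neither group) and a smallest adjusted p of 0.12, for CRELD2, a protein of the stressed endoplasmic reticulum (0.0739 without mouse 68). CRELD2 ran 19 to 44.2 CPM (median 24.5) in Control-57 and 25.9 to 213 CPM (median 129) in Control-78, and the groups overlap. DESeq2 called 14 genes at this step and limma 0, and edgeR called 3 without mouse 85 and 5 without mouse 86. VTN and CRELD2 were chosen after their values were seen.

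A test for any difference among the 4 ages, with no shape assumed, called 22 genes at adjusted p of at most 0.05 (0.998% of those tested), and 13 (0.59%) without mouse 68, 11 of them in both. Beside genes of the linear trend it holds EGR1, DNAJB1, COL1A1, LTB and CYBB, which had no trend call. EGR1, an immediate-early transcription factor, ran 4.32 to 41.9 CPM (median 20.1) in Control-10, 0 to 39.5 CPM (median 14.6) in Control-32, 3.57 to 33.5 CPM (median 9.10) in Control-57 and 0 to 1671 CPM (median 83) in Control-78 (adjusted p = 0.0252, or 0.0459 without mouse 68). Mouse 90 of Control-78 is far above the others, the ranges overlap, and its linear trend, at adjusted p = 0.051 (0.0897 without mouse 68), was called without mouse 71 or 86 (adjusted p = 0.0234 to 0.0487), with all 24 control libraries, with filterByExpr's genes, in DESeq2 and after thinning. DNAJB1, a co-chaperone of the heat shock response, ran 7.62 to 66.5 CPM (median 35.3), 8.87 to 27.1 CPM (median 16.5), 6.86 to 15.1 CPM (median 12) and 9.80 to 436 CPM (median 49.5) in the same order (adjusted p = 0.0323, or 0.0459). COL1A1 (adjusted p = 0.0293, or 0.0459) and LTB (adjusted p = 0.0293, or 0.0459) passed both times, and CYBB only with mouse 68 (adjusted p = 0.0369, or 0.0578). The count is fragile: DESeq2 gave 173, limma 0 and the fit with the depth covariate 0. Leaving out a Control-10 mouse gave 14 (mouse 69), 1 (mouse 71) and 1 (mouse 72). Among Control-32 mice it gave 59 (74), 41 (77) and 11 (78), and among Control-57 mice 13 (80), 14 (81), 13 (82) and 12 (84). Among Control-78 mice it gave 46 (86), 6 (87), 9 (88), 11 (89) and 0 (90).

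The longest span, Control-78 against Control-10, was also compared directly. It called 36 genes (1.63%), 22 higher (0.998%) and 14 lower (0.635%), and without mouse 68 15 genes (0.68%), 8 higher and 7 lower, with 12 called both times. The smallest adjusted p was 0.0021, for C8A, at 2.22 ± 0.34 log2, and CYP3A11 stood at −2.69 ± 0.51 (adjusted p = 0.008). Without mouse 68 these were 2.06 ± 0.36 (adjusted p = 0.00752) and −2.90 ± 0.51 (adjusted p = 0.00752). HERPUD1 was 2.38 ± 0.49 (adjusted p = 0.0141, or 0.0379 without mouse 68) and AMY1 2.28 ± 0.47 (adjusted p = 0.0141, or 0.0262). Upper-quartile scaling turned the split to 14 higher and 29 lower, the depth covariate left 5 calls and DESeq2 gave 146. Single mice took the count to 23 (69), 23 (72), 22 (85), 16 (87), 15 (88), 18 (89) and 22 (90).

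The slopes of the water-only groups were set beside those of the S1 groups, which had DCA at 3.5 g/L in their water for the first 10 weeks and deionized water after, with 6 libraries at each of the same 4 times, S1-10 being collected at the end of the DCA. The question was whether liver that had met DCA moved along the weeks as untreated liver did. The slopes differed in 284 genes at adjusted p of at most 0.05 (12.9% of those tested), 199 with the higher slope in S1 and 85 with the lower, and in 116 (5.26%) without mouse 68, 68 higher and 48 lower. The S1 slope alone called 282 genes (12.8%), 248 higher and 34 lower, with a median of 0.13 over all genes. With the depth covariate 35 genes differed, and with the authors' normalized values in limma 137, of which 47 were higher and 90 lower in S1; upper-quartile scaling gave 343 higher and 70 lower.

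Of the 12 genes called in untreated liver, 9 had a different slope in S1 (8 without mouse 68), beside 12.9% of all genes, a count that shares its control libraries with the choice of the genes. Scaled together with the controls, the S1 medians of C3 were 4813, 6222, 3702 and 5105 CPM along the weeks, against 2177, 2481, 5230.2 and 6067 CPM in the controls. The slope of C3 was −0.42 ± 0.38 in S1, and the difference from the controls was −2.37 ± 0.58 (adjusted p = 0.00597; −2.15 and adjusted p = 0.0184 without mouse 68). C8A in S1 had medians of 435, 581, 385 and 528 CPM, against 119, 255, 351 and 546 CPM, and a slope of −0.10 ± 0.27 (difference −1.92 ± 0.41, adjusted p = 0.00193, or −1.71 and adjusted p = 0.011 without mouse 68). CYP3A11 in S1 had medians of 579, 420.0, 742 and 614 CPM, against 2307, 385, 458 and 335 CPM, and a slope of 0.15 ± 0.41 (difference 2.66 ± 0.59, adjusted p = 0.00239, or 2.74 and adjusted p = 0.00524 without mouse 68). In these medians S1 stood apart from its control at week 10 more than at week 78. AP2M1 rose in S1, at 1.45 ± 0.46 (adjusted p = 0.0318), where it fell in the controls (difference 3.15 ± 0.63, adjusted p = 0.00156, or 3.21 and adjusted p = 0.00335 without mouse 68). For AMY1, INSIG1, SYTL2 and SDPR the differences were −2.97, −2.52, 2.93 and 2.25 log2, at adjusted p values of 0.00176, 0.00156, 0.00156 and 0.000459. Without mouse 68 they were −2.67, −2.46, 2.99 and 2.31, at 0.0057, 0.00368, 0.00335 and 0.000962. GIMAP6 differed by 1.26 ± 0.41 (adjusted p = 0.0358) with mouse 68 and not without it (adjusted p = 0.101). HERPUD1 rose in both (1.09 ± 0.36 in S1, adjusted p = 0.0377), with no difference called (adjusted p = 0.159, or 0.279 without mouse 68).

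CYP4A10 fell in S1 as well, at −3.86 ± 1.21 (adjusted p = 0.03), with medians of 31.4, 3.15, 3.95 and 2.26 CPM. CYP4A14 in S1 had 26, 1.24, 10.7 and 4.37 CPM at the median, and the slopes of neither gene were called different (adjusted p = 0.0585 and 0.0504, or 0.0693 and 0.0698 without mouse 68). The smallest adjusted p of all was that of COL1A1, whose S1 medians were 38, 71.6, 81.8 and 219 CPM, against 181, 38.6, 56.7 and 21.6 CPM. COL1A1 rose in S1 by 2.84 ± 0.51 log2 (adjusted p = 0.00048), and the difference was 4.96 ± 0.77 (adjusted p = 0.000134, or 0.000157 without mouse 68). COL1A2 and COL3A1 differed by 3.94 and 3.51 (adjusted p = 0.00156 and 0.00173), or by 4.05 and 3.63 without mouse 68 (adjusted p = 0.00335 and 0.00335). The acute-phase genes SAA2, HP and APCS differed the other way, by −10.20, −3.26 and −3.63 (adjusted p = 0.00848, 0.00407 and 0.0169), or by −9.97, −3.09 and −3.33 without mouse 68 (adjusted p = 0.0186, 0.0154 and 0.0319). As lists, in untreated liver and S1 the median slopes were 1.28 and −0.80 for acute-phase genes, 1.09 and −0.42 for complement, 0.85 and −0.48 for cholesterol synthesis, −0.43 and 0.87 for collagen and matrix, and −0.89 and 1.65 for cell cycle genes. Fatty acid oxidation lay the same way in both, at −0.54 and −0.58. Without mouse 68 the control medians of these lists were 1.02, 0.95, 1.17, −0.52, −0.51 and −0.59. Some of the cell cycle genes were at few CPM, as given above. Among marker lists the median slopes were also higher in S1 than in untreated liver for some: 4.37 against −0.52 for muscle, 2.21 against −1.53 for pancreas, 1.80 against −2.00 for adipocytes, 1.26 against −0.31 for stellate cells and 1.10 against −0.72 for cholangiocytes. For others they were lower, at −0.14 against 0.05 for macrophages and −0.14 against 0.20 for hepatocytes (0.32 and −0.04 in controls without mouse 68). Some control medians turned sign with the fit: in limma pancreas was 0.28 and muscle 0.10, and with the depth covariate pancreas was −0.06, cholangiocyte 0.47, macrophage −0.49 and hepatocyte −0.13. Without mouse 68 the control medians of muscle, pancreas, adipocytes, stellate cells and cholangiocytes were −0.62, −1.87, −1.96, −0.44 and −0.46, and what part such tissue had in the S1 slopes was not tested.

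**Figure D5:**
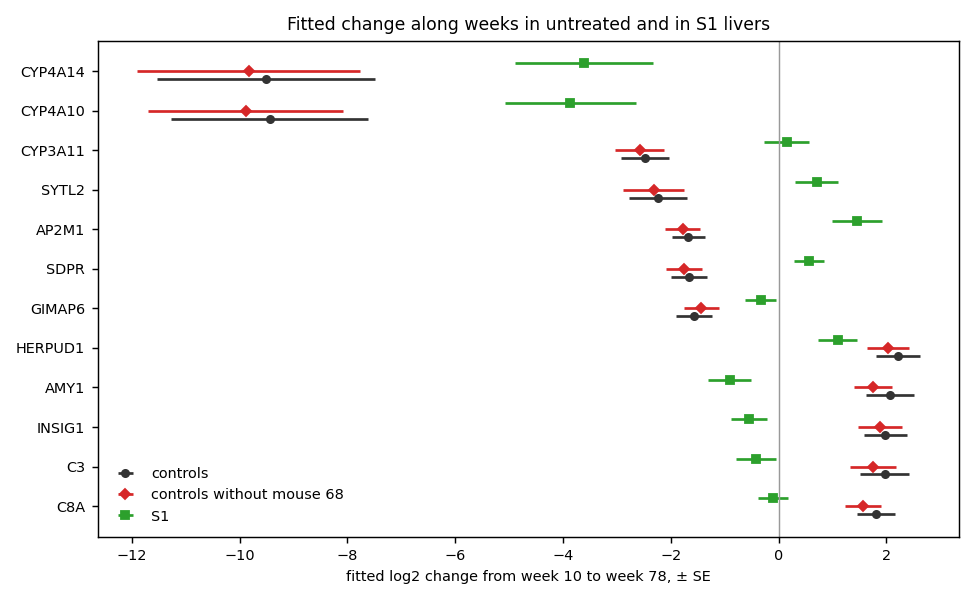
Fitted log2 change from week 10 to week 78 (x axis, with SE) of the 12 genes (y axis) in the water-only groups, the same without mouse 68, and S1. AP2M1 is at −1.67 in the controls and at 1.45 in S1, and HERPUD1 is above 0 in each.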

How the data were processed

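Liver RNA of water-only mice was read by TempO-Seq, and the authors made the deposited counts by matching reads to probes. The deposited normalized signal values were made by the authors as count plus 1 divided by a median-ratio factor in Partek Flow 10.0.22.0524, and their filtered table keeps 2205 genes. The authors left out libraries whose Spearman rank R2 was low, and mice 67 and 70 were not used here except in 1 alternative. Counts of the kept libraries were fitted with edgeR 4.0.16 (TMM, quasi-likelihood, 2-sided, R 4.3.3), with week as a number or as 4 groups, and CPM were computed from them. Genes were called at an adjusted p of at most 0.05, with a fold above 1.5 for trends and pairs of ages and no fold for the test of 4 ages and the difference from S1. Each call was repeated without mouse 68. Alternatives used DESeq2 1.42.0, limma 3.58.1, other scalings, filters and depth terms. The scripts' statistics were tested on simulated data. Genes named by rule were the 12 largest rises and falls called with and without mouse 68 at 10 CPM or more, up to 3 either way per step, up to 4 genes per list by trend p and the most abundant cell markers. The members and lists were chosen with earlier results of these data known.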

Additional observations from a re-analysis of the deposited data

Results flagged for a closer look

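Single values far from the rest of their group were sought in 223 groups of 4 or 6 mice, and 34 were found. Chance gives about 1 in 20 for values spread in a bell shape, which CPM need not be. That rate is also no comparison here for another reason: FGF21, CBR3, FABP4, AGXT2 and DDIT3, for example, were named because their calls changed without mouse 68. Mouse 68 held 7 of them in Control-10: FGF21 at 899 CPM, CBR3 at 232, FABP4 at 545, AGXT2 at 2080, DDIT3 at 563, TRIB3 at 466 and the adipocyte marker sum at 613 CPM. Mouse 84 held 6 in Control-57: EGR1 at 33.5 CPM, TEK at 9.7 (the lowest), CYBB at 670, LTB at 255, and the cholangiocyte and muscle sums at 150 and 155 CPM. Mouse 86 held 4 in Control-78, with CYP4A14 at 45.5 CPM, CYP4A10 at 7, ACAA1B at 1710 and the pancreas sum at 66.5.

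In Control-32, mouse 74 stood out in CYP3A11 (1860 CPM), SDPR (77.6) and COL1A1 (92.8), mouse 77 in LRG1 (1540), AGXT2 (1390) and SAA2 (2160), and mouse 73 in CTNND1 (2320) and ACAA1B (5260). In Control-57, DDIT3 was 360 CPM in mouse 82, APCS 607 in mouse 81, TRIB3 232 in mouse 80 and CYP4A10 29.1 in mouse 79. In Control-78, mouse 90 stood out in DNAJB1 (436 CPM), EGR1 (1670) and the cholangiocyte sum (360), mouse 89 in SAA2 (43700) and mouse 87 in LYZ2 (1140).

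The slope along weeks differed between S1 and the water-only groups in 27 of 46 named genes by the interaction test, given as S1 minus control in log2. The named genes were chosen with these libraries, and 12.9% of all genes tested differed. Without mouse 68 the difference held in 23 of the 27, and not in GIMAP6, FGF21, TRIM28 and ACAA1B. The slope was lower in S1 for AMY1 (−2.97), INSIG1 (−2.52), C3 (−2.37), C8A (−1.92), HP (−3.26), LRG1 (−4.05), TRIM28 (−0.69), APCS (−3.63), SAA2 (−10.2), FDFT1 (−2.04), KDELR2 (−2.03) and EGR1 (−5.09). It was higher in S1 for CYP3A11 (2.66), SYTL2 (2.93), AP2M1 (3.15), SDPR (2.25), GIMAP6 (1.26), FGF21 (3.61), CBR3 (5.16), FABP4 (2.92), CTNND1 (2.97), ETS1 (1.18), ACAA1B (3.34), TRIB3 (5.06), COL1A1 (4.96), COL1A2 (3.94) and COL3A1 (3.51).

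Mouse 67 of Control-10, which the authors left out, had marker sums above every kept control library for pancreas (1050 CPM, kept libraries 1.41 to 388), muscle (636, kept 0 to 185) and adipocytes (717, kept 22.8 to 653). These sums are scaled with all 24 control libraries. What caused any of these values was not tested.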

How the results depend on the processing

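No paired analysis was possible because the groups share no mouse numbers. Of 1652 fits of 46 named genes under other settings, 1450 kept their direction and their side of the threshold, 98 lost the call, 100 gained it and 4 turned sign: CD4 to −0.95 with all 24 control libraries, CYBB to −0.70 and LTB to −1.50 with the depth covariate, and CYBB to −0.45 without mice 82 and 84. The causes of the changes below were not tested.

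The 18 trend calls became 32 with RLE and 41 with upper-quartile scaling, 35 with filterByExpr's genes, 104 with all 24 controls, 125 with DESeq2, 0 with the depth covariate, 71 along log2 of week and 30 without mice 82 and 84. The 22 calls among 4 ages became 51 with all 24 controls, 173 with DESeq2, 0 with the covariate, 0 with limma, 84 without mice 73 and 74, 8 without 68 and 75 and 12 without 82 and 84.

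Control-32 against Control-10, with 0, gave 6 with all 24 controls, 76 with DESeq2, 35 with all 13 groups in the fit and 140 without mice 73 and 74. Control-57 against Control-32 gave 9 with DESeq2. Control-78 against Control-57 gave 14 with DESeq2 and 11 with all 13 groups. The 36 calls of Control-78 against Control-10 became 76 with all 24 controls, 146 with DESeq2, 5 with the covariate, 87 with all 13 groups and 63 without 73 and 74. The 284 differences from S1 became 551 with all 24 controls, 561 with DESeq2, 35 with the covariate, 137 with limma and 100 without 68 and 75.

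Leaving out 1 water-only library at a time gave 11 to 58 trend calls, 0 to 59 among 4 ages, 0 to 92, 0 to 0 and 0 to 5 for the 3 steps in order, 15 to 48 for Control-78 against Control-10 and 116 to 361 for the difference from S1, where no S1 library was left out. The fits without pairs of mice were chosen after seeing the data. Depth rises with age, Control-10 has 4 mice, and levels near 0 rest on few counts, so calls that were lost do not show that a gene stayed level.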
